A study of Mus musculus with 19 samples.

Results

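The collagen genes are described here in developing mouse kidney cells. They were taken as every gene symbol of the form Col, a number, the letter a and a number that stands in the first column of both deposited expression tables. There were 44 such genes of 24486 gene names in all. They were grouped by the protein they encode into 11 fibrillar chains, 6 chains of type IV, 3 chains of the basement membrane zone, 9 network-forming chains, 9 chains of the FACIT class (fibril-associated collagens with interrupted triple helices) and 6 transmembrane and other chains.

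Collagens are secreted or membrane-bound proteins built of a triple helix of chains, each chain encoded by its own gene. Fibrillar collagens form the rope-like fibres of connective tissue, type IV collagen forms the sheet that underlies epithelia and vessels, and network and FACIT collagens link fibres to each other and to cells. In the forming kidney, interstitial (stromal) cells lay down much of the fibrillar matrix, epithelia and endothelia rest on type IV collagen, and the mature glomerular filter uses its own set of type IV chains.

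The study measured gene expression by RNA sequencing in 19 libraries, in 7 groups, of cells from embryonic kidneys of CFW mice. At E16.5 (embryonic age in days), cells of the nephrogenic zone, the outer rim in which new nephrons form, were sorted with an antibody to SIX2, the transcription factor that marks nephron progenitors, into SIX2+ and SIX2- cells, and unsorted nephrogenic zone cells (NZC) were sequenced beside them. These libraries carry MARIS in their titles, which names a way to sort cells on an intracellular protein and still sequence their RNA, and no altered allele is given for them. Also at E16.5, kidneys with the Six2TGC/+ genotype, a transgene that places GFP and Cre under control of Six2, were sorted into GFP+ and GFP- cells, and at E14.5 kidneys with the Foxd1Cre;Tdt genotype were sorted into Tdt+ cells, which have a history of Foxd1 expression and so include the descendants of the Foxd1-expressing stromal progenitors, and Tdt- cells. Each E16.5 group had 3 libraries and each E14.5 group had 2. The labels do not state that libraries of a group are separate animals or litters, so p-values speak of the scatter among these libraries, part of which may be technical.

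Values are RPKM (reads divided by gene length in kilobases and by library depth), so levels can be compared between genes. Differences are given as log2 fold changes of RPKM + 1, which understates changes of low genes, each with its standard error (SE) and with an adjusted p from limma over all genes tested. A gene was called when that p was under 0.05. Depth estimated from the smallest values was between 26200000 and 45800000 reads in 14 of the 15 E16.5 libraries and 3110000 reads in unsorted library 2, which also held the most Rn45s (762 RPKM) and Malat1 (683 RPKM) of the E16.5 table. At E14.5 it was 9480000 and 8430000 reads in Tdt+ libraries, against 30600000 and 26500000 in Tdt- libraries. Six2 checked the sorts, at 301, 295 and 458 RPKM in SIX2+ libraries against 4.43, 7.59 and 46.8 RPKM in SIX2- libraries, and at 312, 348 and 346 RPKM in GFP+ libraries against 2.70, 2.88 and 16.8 RPKM in GFP- libraries. In both negative fractions library 3 held the most Six2. Foxd1 averaged 153 RPKM in Tdt+ cells and 27.5 RPKM in Tdt- cells.

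Most collagen genes were low in nephron progenitors. Of the 38 collagen genes that passed the filter on low values at E16.5, limma called 26 lower and 6 higher in SIX2+ than in SIX2- cells, where 15.9% and 8.37% of all 12817 genes tested were called lower and higher. Between GFP+ and GFP- cells 27 were lower and 5 higher, against 17.0% and 15.9% of all genes. The median log2 fold change of the tested collagen genes was -1.35 in the SIX2 sort and -1.77 in the GFP sort, where the medians over all genes were 0.04 and 0.09. In the Foxd1 lineage at E14.5, 13 of 34 tested collagen genes were lower in Tdt+ than in Tdt- cells and none was higher, against 7.21% and 1.22% of the 12383 genes tested there. The median log2 fold change was -0.71 for the collagen genes and -0.04 for all genes, and 16 collagen genes had an unadjusted p under 0.05. Leaving out an E14.5 library leaves 1 library in a group, and the lower calls then moved, both among collagen genes and over all genes. Without Tdt+ library 1, which left 1 Tdt+ library, the falls of several collagen genes were larger. On the log2 scale Col1a2 went from -1.15 to -1.52, Col3a1 from -0.69 to -1.05 and Col12a1 from -0.21 to -0.68. Col4a6, Col5a1, Col5a2, Col6a1 and Col6a3 were among the others that fell further, while Col25a1 hardly moved, from -0.93 to -0.96. Without Tdt- library 1 or 2, the 5 genes that had passed the filter through the Tdt- libraries alone were no longer tested. When genes of any level were tested, 5 collagen genes were lower, against 221 of all 18994 genes.

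The members that passed are not the whole family. At E16.5, Col10a1, Col17a1, Col19a1, Col20a1, Col22a1 and Col28a1 were too low to be tested, and at E14.5 Col4a3, Col6a4, Col6a5 and Col8a1 were too low as well. Of the tested genes, 12 reached 1 RPKM in SIX2- and not in SIX2+ libraries, 10 in GFP- and not in GFP+ libraries and 5 in Tdt- and not in Tdt+ libraries. Those 5 were Col2a1, Col7a1, Col9a3, Col11a2 and Col15a1. They passed the E14.5 filter through the Tdt- libraries alone and so could only come out lower. At E16.5 the filter counted all 15 libraries, so such genes could also pass it through NZC or the other sort. With no progenitor library of the sort at 1 RPKM, their direction there was still close to fixed.

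In the E16.5 sorts the same 26 genes were lower in SIX2+ and in GFP+ cells, with Col23a1 the 1 further gene called in the GFP sort. Of the 26, 4 were also lower in Tdt+ cells (Col4a1, Col9a2, Col14a1 and Col15a1), 18 were tested and not called there, and 4 were not tested. Among the 7 genes that were higher in SIX2+ or GFP+ cells, Col2a1, Col11a2, Col9a1 and Col26a1 were called in both sorts, Col13a1 and Col7a1 in the SIX2 sort and Col18a1 in the GFP sort. All of these 7 but Col26a1 were lower in Tdt+ than in Tdt- cells, but Col2a1, Col11a2 and Col7a1 passed the filter there through Tdt- libraries alone.

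**Figure D1:**
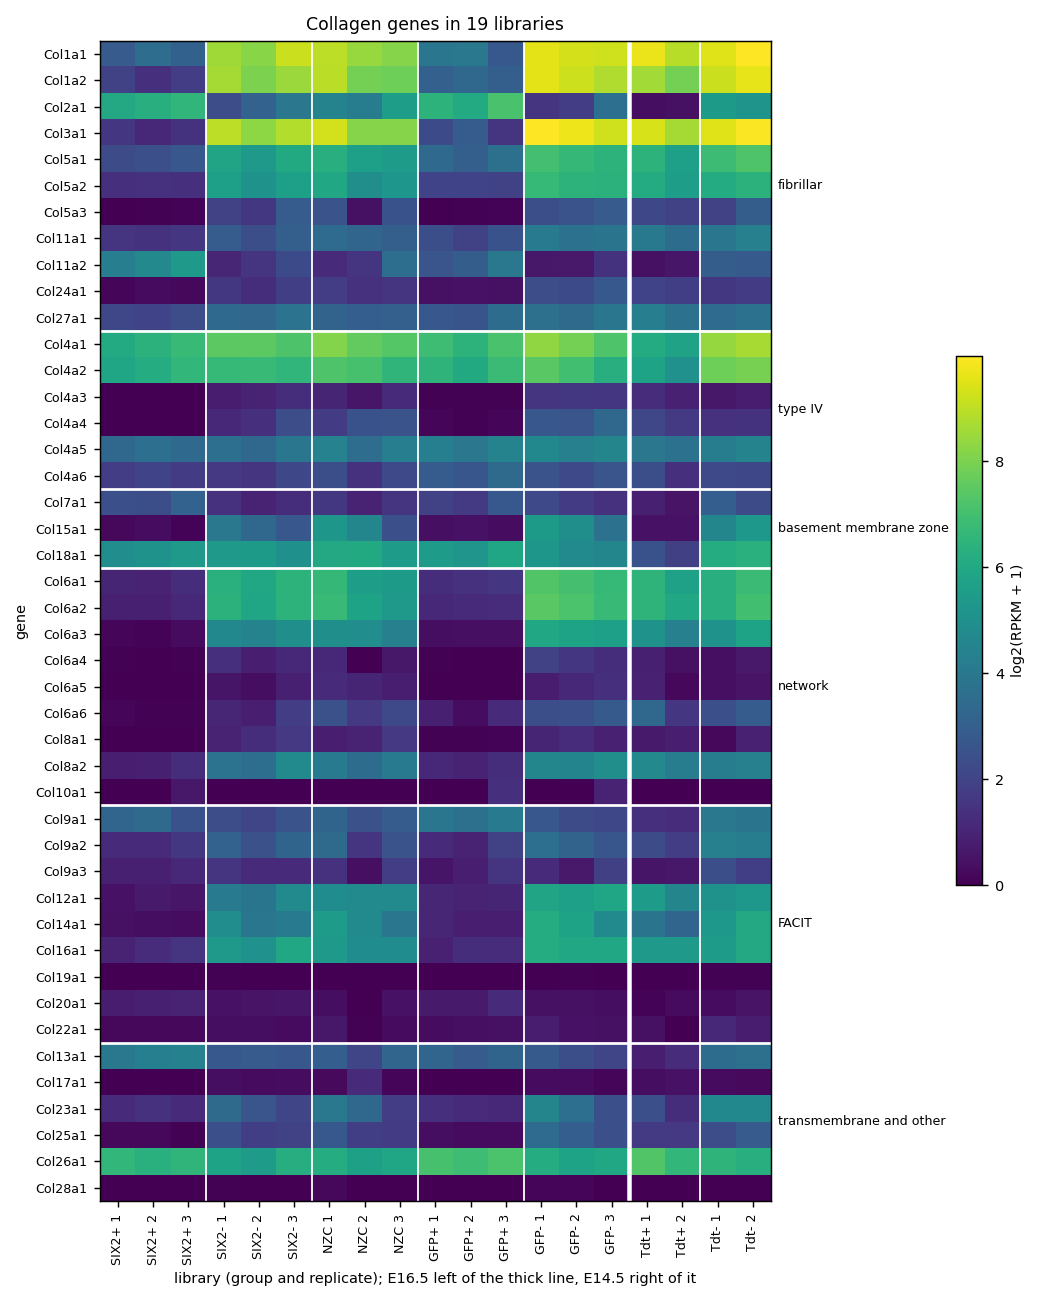
Expression of the collagen genes in the 19 libraries, as log2(RPKM + 1) in colour, with genes in rows by class and libraries in columns by group. The stromal fibrillar genes, such as Col3a1 at 1.18 to 1.98 RPKM in SIX2+ libraries, are dark (low) in the progenitor columns and bright (high) in the others, and Col2a1 shows the opposite contrast at E16.5.

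Summed over the 44 genes, collagen RNA was 404.6 to 553 RPKM in SIX2+ libraries and 1597 to 2303 RPKM in SIX2- libraries. It was 483 to 725.5 RPKM in GFP+ libraries and 2721 to 4141 RPKM in GFP- libraries. It was 2752 and 1676 RPKM in Tdt+ libraries and 3459 and 4537 RPKM in Tdt- libraries. The groups did not overlap in any of the 3 sorts. The make-up differed as well, for fibrillar chains were 27.6% of the summed collagen RPKM in SIX2+ and 65.3% in SIX2- cells, 25.7% in GFP+ and 68.2% in GFP- cells, and 75.0% in Tdt+ and 67.2% in Tdt- cells. Type IV chains were 37.1% in SIX2+ and 14% in SIX2- cells, 37.9% in GFP+ and 11.5% in GFP- cells, and 5.61% in Tdt+ and 15.8% in Tdt- cells. In these mixed populations, fewer cells of a type and less RNA per cell cannot be told apart.

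The highest collagen gene was also a different one. In SIX2+ cells it was Col26a1 at 89.0 ± 8.43 RPKM (SD, n = 3), with Col4a1 at 86.2 ± 18.2, Col2a1 at 77.9 ± 14.3 and Col4a2 at 75.5 ± 20.5 RPKM, and these neighbours in the order lay within each other's spread. GFP+ cells had the same 4 genes on top, Col26a1 at 131 ± 12, Col4a1 at 113 ± 25.4, Col2a1 at 97.4 ± 35.8 and Col4a2 at 88.2 ± 21.9 RPKM. SIX2- cells had Col3a1 at 429 ± 102, Col1a1 at 421 ± 147 and Col1a2 at 335 ± 72.4 RPKM, which also lay within each other's spread. Those 3 genes led in GFP- cells too, and in Tdt+ and Tdt- cells, in both of which Col1a1 stood first.

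In both E16.5 sorts the fibrillar gene Col3a1 had the lowest log2 fold change of the whole family and Col1a2 the next. Col1a1 followed in the SIX2 sort (-5.50), and in the GFP sort the network gene Col6a2 (-5.92) stood before Col1a1 (-5.84). Limma called 9 of 11 fibrillar genes lower and 2 higher in SIX2+ than in SIX2- cells, and the same split held for GFP+ against GFP- cells. Of the 9, Col5a3 and Col24a1 reached 1 RPKM in no SIX2+ or GFP+ library, so their direction was close to fixed. The shares over all genes, 15.9% lower and 8.37% higher in the SIX2 sort and 17.0% and 15.9% in the GFP sort, are the background for this and the other class counts. In Tdt+ cells 2 of 11 were lower than in Tdt- cells (7.21% of all genes), and these were the 2 that the progenitors held at higher levels. Both passed the E14.5 filter through Tdt- libraries alone and so could only come out lower there. The promoter windows of Col3a1, Col1a2 and Col11a2 are shown because Col3a1 and Col1a2 had the lowest and Col11a2 the highest log2 fold change of the tested collagen genes in SIX2+ against SIX2- cells. Each runs from 250 bases before to 50 bases after the RefSeq start on the plus strand of GRCm38.p6, at chr1:45311288-45311587 for Col3a1, chr6:4505368-4505667 for Col1a2 and chr17:34038888-34039187 for Col11a2. Capitals mark matches, none of which overlapped. The letters TATAAA, known as the TATA box, read TTTATA on the opposite strand. The CCAAT box reads ATTGG there, and the letters GGGCGG of the box that SP1 binds read CCGCCC there.
Col3a1: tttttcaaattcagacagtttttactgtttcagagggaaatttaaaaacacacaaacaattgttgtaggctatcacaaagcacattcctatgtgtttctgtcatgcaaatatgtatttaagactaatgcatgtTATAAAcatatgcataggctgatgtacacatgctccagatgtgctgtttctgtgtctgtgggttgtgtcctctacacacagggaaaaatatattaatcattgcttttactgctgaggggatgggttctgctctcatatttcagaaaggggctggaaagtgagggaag
Col1a2: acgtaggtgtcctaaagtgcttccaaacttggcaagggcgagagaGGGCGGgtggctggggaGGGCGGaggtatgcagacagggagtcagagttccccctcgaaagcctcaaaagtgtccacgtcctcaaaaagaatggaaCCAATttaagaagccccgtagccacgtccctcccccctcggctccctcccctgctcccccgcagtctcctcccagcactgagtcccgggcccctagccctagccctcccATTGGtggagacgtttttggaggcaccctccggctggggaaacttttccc
Col11a2: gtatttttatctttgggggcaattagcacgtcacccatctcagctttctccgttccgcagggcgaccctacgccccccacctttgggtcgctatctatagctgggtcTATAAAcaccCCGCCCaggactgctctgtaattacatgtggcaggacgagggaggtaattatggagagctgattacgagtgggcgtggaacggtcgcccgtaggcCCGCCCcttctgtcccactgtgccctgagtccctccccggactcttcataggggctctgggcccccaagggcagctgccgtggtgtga

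Col3a1 held TATAAA alone of these letters, 117 bases before its start. Col1a2 held GGGCGG at 205 and 188 bases before the start, CCAAT 109 bases before it and ATTGG at the start itself. Col11a2 held TATAAA 143 bases before its start and CCGCCC at 133 and 38 bases. RefSeq windows matched 35 of the 44 genes, with 38 windows between them. TATAAA on either strand was in 13.2% of these and in 13.6% of all 32851 windows, CCAAT in 34.2% and 37.4%, and GGGCGG in 60.5% and 35.7%. These matches describe the letters of the windows only.

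Col3a1 encodes the chain of type III collagen, which forms fine fibres in soft tissue. It measured 1.98, 1.18 and 1.79 RPKM in SIX2+ libraries, against 511, 315 and 461 RPKM in SIX2- libraries. GFP+ libraries had 3.79, 6.50 and 1.82 RPKM of Col3a1, against 1000, 843 and 617 RPKM in GFP- libraries. Every progenitor library lay far under every negative library, with log2 fold changes of -7.33 (SE 0.35, limma adjusted p = 5.01e-09) for SIX2+ and -7.43 (SE 0.35, adjusted p = 2.53e-09) for GFP+ cells. The SIX2+ mean was 0.385% of the SIX2- mean. Tdt+ libraries held 662 and 403 RPKM of Col3a1 and Tdt- libraries 713 and 972 RPKM, a log2 fold change of -0.69 that was not called (SE 0.47, adjusted p = 0.428).

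Col1a1 and Col1a2 encode the 2 chains of type I collagen, the main fibre of bone, skin and interstitium. Col1a1 was 6.22, 10.8 and 7.54 RPKM in SIX2+ libraries, against 380.3, 299 and 583 RPKM in SIX2- libraries, and 14, 15 and 5.73 RPKM in GFP+ libraries, against 759, 655 and 606 RPKM in GFP- libraries. Col1a2 was 2.83, 1.53 and 2.52 RPKM in SIX2+ libraries, against 394, 255 and 358 RPKM in SIX2- libraries, and 7.27, 9.09 and 7.18 RPKM in GFP+ libraries, against 754, 603 and 439.9 RPKM in GFP- libraries. Both chains were low in all 6 progenitor libraries, by log2 fold changes of -5.50 and -6.67 in SIX2+ and -5.84 and -6.06 in GFP+ cells (adjusted p at most 2.87e-08). The ratio of Col1a1 to Col1a2 was 2.20 to 7.04 in SIX2+ libraries and 0.965 to 1.63 in SIX2- libraries, and 0.798 to 1.92 in GFP+ libraries and 1.01 to 1.38 in GFP- libraries. In the Foxd1 lineage Col1a1 was 835 and 477 RPKM in Tdt+ libraries, against 731 and 1013 RPKM in Tdt- libraries, and Col1a2 was 390.0 and 235 RPKM in Tdt+ libraries, against 581 and 786 RPKM in Tdt- libraries. Neither was called there, at log2 fold changes of -0.45 (SE 0.50, adjusted p = 0.642) for Col1a1, whose groups overlapped, and -1.15 (SE 0.42, adjusted p = 0.152) for Col1a2, whose groups did not. Without Tdt+ library 1, which left 1 Tdt+ library, the log2 fold changes were -1.52 for Col1a2 and -1.05 for Col3a1.

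Type V chains, which regulate the width of type I fibres, followed with smaller levels. Col5a1 was 3.90, 4.39 and 5.62 RPKM in SIX2+ libraries, against 56.4, 40.0 and 65.9 RPKM in SIX2- libraries (log2 fold change -3.27, SE 0.24, adjusted p = 2.15e-07). Col5a2 was 1.53, 1.67 and 1.59 RPKM in SIX2+ libraries, against 49.2, 32.7 and 48.7 RPKM in SIX2- libraries (log2 fold change -4.08, SE 0.22, adjusted p = 1.29e-08). Col5a1 was 9.58, 7.15 and 11.8 RPKM in GFP+ libraries, against 128, 99.2 and 87.5 RPKM in GFP- libraries (-3.34). Both type V chains were thus low in all 6 progenitor libraries. Col5a2 was 3.05, 3.06 and 2.96 RPKM in GFP+ libraries, against 103, 87.7 and 83.5 RPKM in GFP- libraries (-4.52), with no overlap between groups in either sort. The fall of Col5a2 left Col5a1 at 2.55 to 3.52 times Col5a2 in SIX2+ libraries and 1.15 to 1.35 times in SIX2- libraries. The same ratio was 2.33 to 3.97 in GFP+ libraries and 1.05 to 1.24 in GFP- libraries. The other fibrillar genes called lower in both sorts were Col5a3, Col11a1, Col24a1 and Col27a1, at log2 fold changes of -2.10, -1.24, -1.38 and -1.33 in SIX2+ cells and -2.56, -1.59, -1.99 and -0.74 in GFP+ cells. For Col5a3 and Col24a1, with no progenitor library at 1 RPKM, the direction was close to fixed. In the Foxd1 lineage Col5a1 was 86.2 and 48.8 RPKM in Tdt+ libraries, against 115 and 149.9 RPKM in Tdt- libraries. Col5a2 was 69.0 and 47.0 RPKM in Tdt+ libraries, against 69.2 and 84.9 RPKM in Tdt- libraries. None of these 6 genes was called in Tdt+ cells, where Col5a1 had -1.01 (SE 0.32, adjusted p = 0.107), Col5a2 -0.42, Col5a3 -0.42, Col11a1 -0.36, Col24a1 0.22 and Col27a1 0.39.

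**Figure D2:**
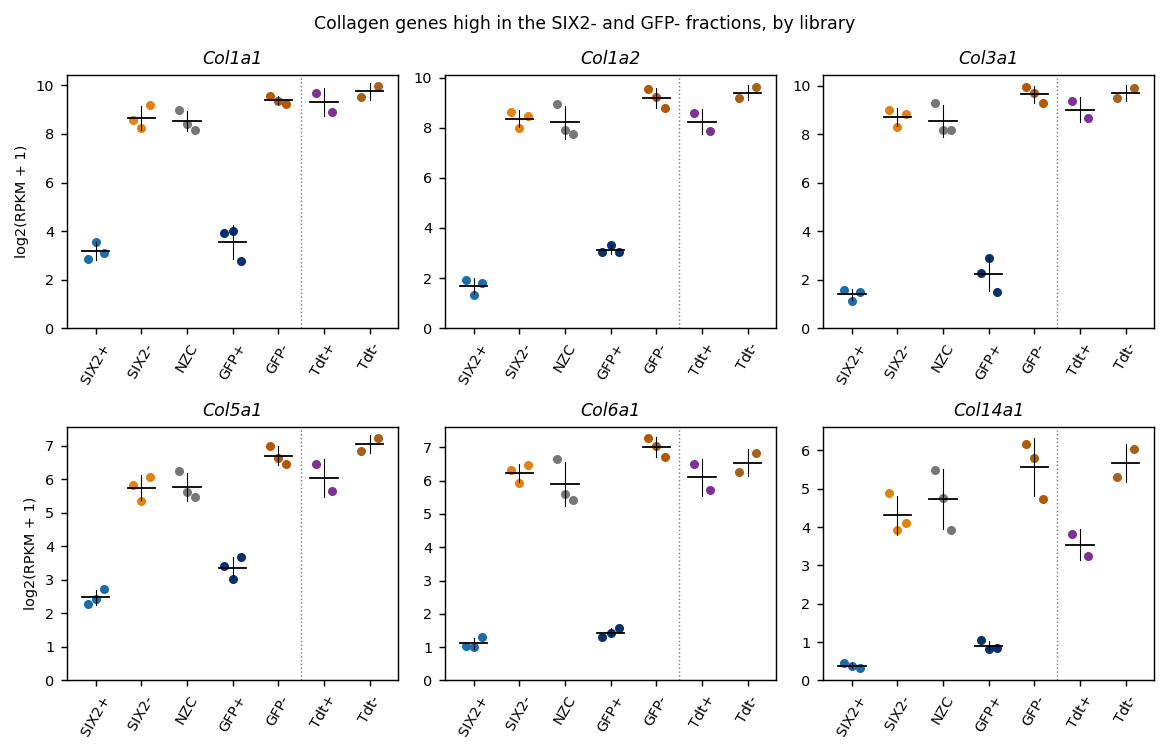
Col1a1, Col1a2, Col3a1, Col5a1, Col6a1 and Col14a1 by group, with 1 dot per library on a log2(RPKM + 1) axis, a bar at the mean and a thin line for ± 1 SD; a dotted line parts the E16.5 from the E14.5 table. SIX2+ and GFP+ dots lie under all others in each panel, while Tdt+ dots lie near Tdt- dots except for Col14a1, at 13.2 and 8.52 RPKM against 38.7 and 64.3 RPKM.

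Markers of other cells moved with these genes. The 7 genes of a stromal marker list summed to 38.4 to 51.1 RPKM in SIX2+ libraries and 320.4 to 492 RPKM in SIX2- libraries, to 40.7 to 56.2 RPKM in GFP+ libraries and 534 to 688 RPKM in GFP- libraries, and all 7 were lower in both sorts. Pdgfra, a receptor typical of stromal fibroblasts, was at 0.226 to 0.228 RPKM in SIX2+ libraries and at 36.3 to 55.2 RPKM in SIX2- libraries. The sum of the same list in the Foxd1 lineage was 549 to 660 RPKM in Tdt+ libraries and 398 to 551 RPKM in Tdt- libraries, so the Tdt- fraction held stromal RNA too, with Pdgfra at 66.9 and 100.6 RPKM. There 1 of the 7 was higher in Tdt+ cells (Foxd1) and 2 were lower (Lum and Dcn, proteoglycans that bind collagen fibres). The part of these markers in the collagen differences was not tested.

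The 2 fibrillar genes that progenitors held at higher levels are known from cartilage. Col2a1 encodes type II collagen, the main fibre of cartilage, and measured 64.7, 76.1 and 93.1 RPKM in SIX2+ libraries, against 4.10, 7.89 and 14.7 RPKM in SIX2- libraries. GFP+ libraries had 87.2, 67.8 and 137 RPKM of Col2a1, against 1.94, 2.48 and 11.4 RPKM in GFP- libraries. The groups were far apart in both sorts, at log2 fold changes of 3.13 (SE 0.53, adjusted p = 0.000469) for SIX2+ and 4.23 (SE 0.53, adjusted p = 2.45e-05) for GFP+ cells. The highest negative library for Col2a1 was library 3 of both sorts, which was also the one with the most Six2. In the Foxd1 lineage Col2a1 was at 0.308 and 0.347 RPKM in Tdt+ libraries, against 42.8 and 35.3 RPKM in Tdt- libraries (log2 fold change -4.91, SE 0.25, adjusted p = 0.000122).

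Col11a2 encodes a chain of type XI collagen, which sits inside type II fibres. It was 18.1, 24.8 and 40.7 RPKM in SIX2+ libraries, against 1.11, 1.92 and 3.71 RPKM in SIX2- libraries (log2 fold change 3.16, SE 0.55, adjusted p = 0.000639). GFP+ libraries had 5.23, 6.72 and 14.8 RPKM, against 0.579, 0.626 and 1.79 RPKM in GFP- libraries (2.24, SE 0.55, adjusted p = 0.00608). Again no progenitor library overlapped a negative one. Tdt+ libraries held 0.367 and 0.521 RPKM of Col11a2 and Tdt- libraries 6.74 and 6.04 RPKM (-2.36, SE 0.24, adjusted p = 0.0017). The partner chain Col11a1 went the other way, so that the ratio of Col11a1 to Col11a2 was 0.0487 to 0.106 in SIX2+ libraries and 1.91 to 5.79 in SIX2- libraries, and 0.319 to 0.828 in GFP+ libraries and 7.38 to 28.3 in GFP- libraries. Col2a1 was 2.29 to 3.57 times Col11a2 in SIX2+ libraries and 9.28 to 16.7 times in GFP+ libraries.

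Other cartilage genes were low in the same libraries. The 5 cartilage markers in the tables summed to 3.66 to 5.26 RPKM in SIX2+ libraries and 6.08 to 8.65 RPKM in SIX2- libraries, and to 6.36 to 11.5 RPKM in GFP+ libraries and 6.03 to 6.88 RPKM in GFP- libraries. Acan, the main proteoglycan of cartilage, was at most 0.179 RPKM in SIX2+ libraries and 0.793 RPKM in GFP+ libraries. Matn1, a matrilin of cartilage matrix, was 1.70, 1.56 and 1.61 RPKM in SIX2+ libraries, against 0.0189, 0.0231 and 0.136 RPKM in SIX2- libraries, a log2 fold change of 1.31 (SE 0.15, adjusted p = 1.59e-05). GFP+ cells gave 1.52 for Matn1 (adjusted p = 2.8e-06). Hapln1, which links cartilage proteoglycans, went the other way and was lower in SIX2+ (-1.25, adjusted p = 0.0489) and GFP+ cells (-1.81, adjusted p = 0.00511). Sox9, a transcription factor that drives Col2a1 in cartilage, was 3.49, 1.97 and 3.06 RPKM in SIX2+ libraries, against 5.45, 4.35 and 6.19 RPKM in SIX2- libraries (-0.73, adjusted p = 0.031). In the GFP sort Sox9 was called in the opposite direction, at 5.62, 4.25 and 8.12 RPKM in GFP+ libraries, against 2.56, 2.52 and 3.87 RPKM in GFP- libraries (0.79, adjusted p = 0.0166). Acan and Matn3 were too low to be tested.

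**Figure D3:**
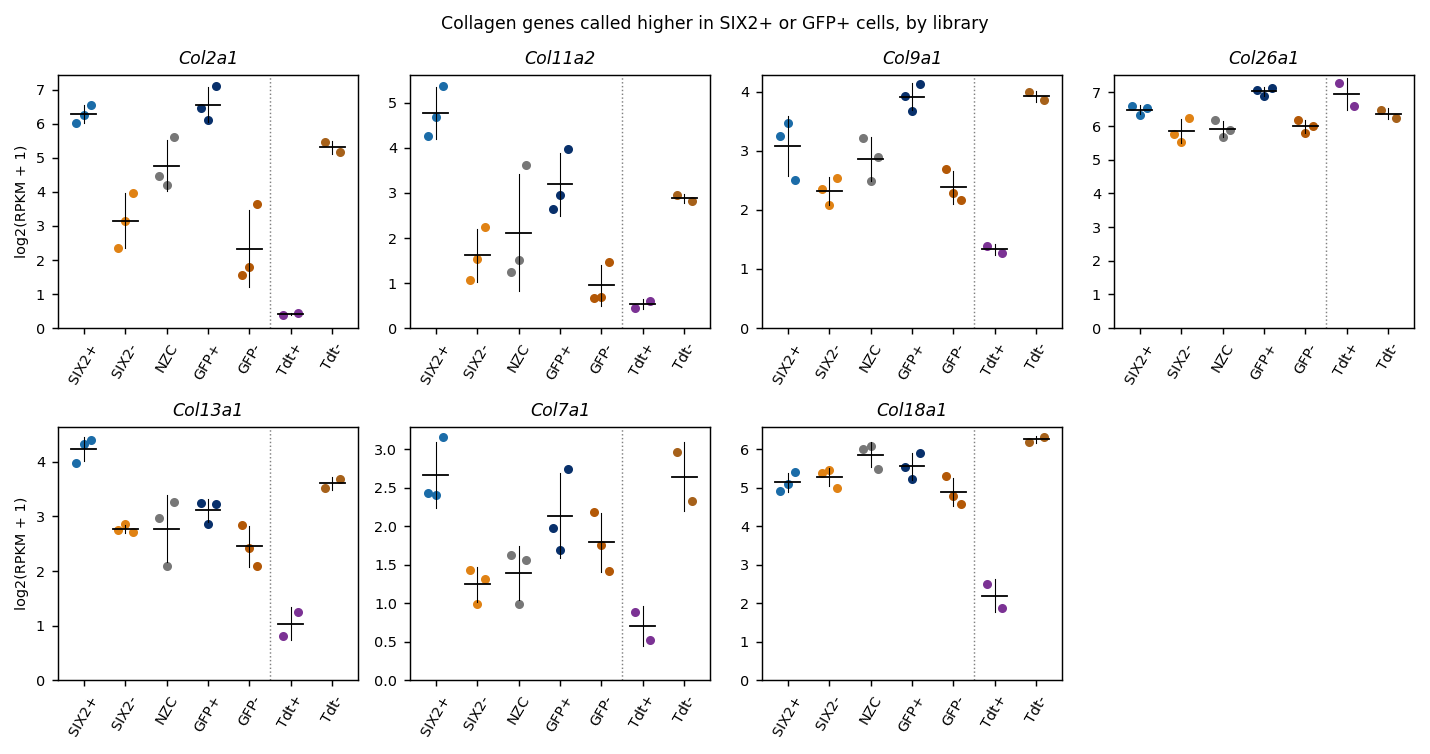
The 7 collagen genes called higher in SIX2+ or GFP+ cells, with 1 dot per library on a log2(RPKM + 1) axis, a bar at the mean and a thin line for ± 1 SD; a dotted line parts the E16.5 from the E14.5 table. Col2a1 is at 64.7 to 93.1 RPKM in SIX2+ libraries and at 0.308 and 0.347 RPKM in Tdt+ libraries, and Col26a1 alone stays high in every group.

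Most chains of type IV collagen, the sheet of basement membranes, differed less between the E16.5 fractions. Col4a3 and Col4a4 were the exceptions, with SIX2+ means at 0.589% and 0.769% of the SIX2- means, falls that the log2 changes of RPKM + 1 understate. Limma called 3 of the 6 type IV chains lower and none higher in SIX2+ than in SIX2- cells, and the same 3 chains lower in GFP+ than in GFP- cells. The genes lie head to head in pairs, and the windows of Col4a1 and Col4a2 are shown because both share 1 start region while their RNA levels moved by different amounts. Col4a1 is on the minus strand at chr8:11312777-11313076 and Col4a2 on the plus strand at chr8:11312555-11312854 of GRCm38.p6, per RefSeq. Their starts are 21 bases apart, and 78 bases, chr8:11312777-11312854, belong to both windows. Each is printed 5′ to 3′ on its own strand, with capitals as above.
Col4a1: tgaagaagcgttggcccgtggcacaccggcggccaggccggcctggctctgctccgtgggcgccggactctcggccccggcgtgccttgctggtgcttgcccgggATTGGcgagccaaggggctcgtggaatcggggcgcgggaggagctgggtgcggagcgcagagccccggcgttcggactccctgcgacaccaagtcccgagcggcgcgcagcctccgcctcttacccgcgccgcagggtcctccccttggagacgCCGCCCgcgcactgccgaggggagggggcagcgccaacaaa
Col4a2: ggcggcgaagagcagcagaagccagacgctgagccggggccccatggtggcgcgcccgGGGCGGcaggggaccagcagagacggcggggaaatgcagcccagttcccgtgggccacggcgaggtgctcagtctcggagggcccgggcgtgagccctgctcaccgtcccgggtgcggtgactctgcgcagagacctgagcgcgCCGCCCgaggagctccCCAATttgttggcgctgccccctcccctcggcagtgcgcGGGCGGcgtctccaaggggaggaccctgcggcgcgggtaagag

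Col4a1 held ATTGG 145 bases before its start, and Col4a2 held CCAAT 32 bases before its own, GGGCGG 192 bases and CCGCCC 48 bases before it. A further match lies in the shared stretch, read as CCGCCC on the strand of Col4a1 and as GGGCGG on that of Col4a2. Overlap of the 2 gene models at their starts, on opposite strands, means that reads there can be assigned by strand only, and strand counting is not given in the sources used here.

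Col4a1 was 68.6, 84.9 and 105 RPKM in SIX2+ libraries, against 178, 174 and 144 RPKM in SIX2- libraries (log2 fold change -0.95, SE 0.27, adjusted p = 0.0183). GFP+ libraries had 117, 86.6 and 137 RPKM, against 317, 237 and 149 RPKM in GFP- libraries (-1.0, SE 0.27, adjusted p = 0.0112). The groups did not overlap, but these calls were lost when single libraries were left out, with adjusted p in the SIX2 sort of 0.0847 without SIX2+ library 1, 0.0526 without SIX2+ library 2, 0.0676 without SIX2- library 1 and 0.0621 without SIX2- library 2, and in the GFP sort of 0.0552 without GFP+ library 2 and 0.0627 without GFP- library 1. Col4a2 was 57.2, 71.8 and 97.7 RPKM in SIX2+ libraries, against 102, 105 and 93.6 RPKM in SIX2- libraries. GFP+ libraries had 88.4, 66.2 and 110.0 RPKM of Col4a2, against 171, 123 and 77.6 RPKM in GFP- libraries, which overlapped. It was not called in either sort, at -0.44 in both (SE 0.28, adjusted p = 0.312 and 0.248). The ratio of Col4a1 to Col4a2 was 1.08 to 1.20 in SIX2+ libraries and 1.54 to 1.74 in SIX2- libraries, and 1.25 to 1.32 in GFP+ libraries and 1.86 to 1.92 in GFP- libraries. Thus it was lower in every progenitor library than in every negative library.

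Both chains were lower in the Foxd1 lineage. Col4a1 was 68.8 and 52.5 RPKM in Tdt+ libraries, against 334 and 414 RPKM in Tdt- libraries (log2 fold change -2.61, SE 0.29, adjusted p = 0.00214). Col4a2 was 54.5 and 32.0 RPKM in Tdt+ libraries, against 219.8 and 247 RPKM in Tdt- libraries (-2.45, SE 0.30, adjusted p = 0.00346). Both calls were lost when genes of any level were tested, at adjusted p of 0.0507 and 0.0656. Endothelial markers, summed over 5 genes, were at 10.2 to 18.7 RPKM in Tdt+ libraries and 51.3 to 72.7 RPKM in Tdt- libraries, and nephron progenitor markers, over 6 genes, at 10.7 to 14.6 RPKM and 244 to 271.5 RPKM. Their part in the type IV difference was not tested.

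The chains of the mature glomerular and tubular membranes were low. Col4a3 was at 0.00508 to 0.00849 RPKM in SIX2+ libraries and 0.756 to 1.47 RPKM in SIX2- libraries (log2 fold change -1.03, adjusted p = 0.000578), and at 0.0298 to 0.0469 RPKM in GFP+ libraries and 1.94 to 2.07 RPKM in GFP- libraries (-1.54, adjusted p = 1.18e-05). Col4a4 was at 0.00936 to 0.0224 RPKM in SIX2+ libraries and 1.18 to 4.12 RPKM in SIX2- libraries (-1.58, adjusted p = 0.0014), and at 0.0492 to 0.108 RPKM in GFP+ libraries and 5.19 to 9.37 RPKM in GFP- libraries (-2.79, adjusted p = 7.19e-06). Both were therefore near 0 in every progenitor library and passed the filter through the other fractions. All 5 genes of a podocyte marker list were lower in both sorts, at 2.59 to 3.81 RPKM summed in SIX2+ libraries and 22.6 to 77.5 RPKM in SIX2- libraries. The same 5 were also lower in Tdt+ cells, at 6.34 to 6.69 RPKM summed, against 42.2 to 56.1 RPKM in Tdt- libraries, where Col4a4 was not lower. The part of these markers in the Col4a3 and Col4a4 values was not tested. In Tdt+ libraries Col4a4 was 3.31 and 2.20 RPKM and in Tdt- libraries 1.65 and 1.79 RPKM, which was not called (0.45, SE 0.26, adjusted p = 0.346).

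Col4a5, which pairs with those chains and with Col4a6 in other membranes, was 9.42, 11.4 and 9.51 RPKM in SIX2+ libraries, against 11.6, 9.11 and 14.1 RPKM in SIX2- libraries. Col4a6 was 2.51, 3.01 and 2.41 RPKM in SIX2+ libraries, against 2.14, 1.83 and 3.49 RPKM in SIX2- libraries. Both sets overlapped, and neither gene was called in the SIX2 sort (-0.17 and 0.09), in the GFP sort (-0.26 and 0.54) or in Tdt+ cells (-0.50 and -0.30). In the GFP sort Col4a5 was 19.1, 14.6 and 21.1 RPKM in GFP+ libraries, against 24.2, 19.4 and 22.3 RPKM in GFP- libraries. Col4a6 was 6.50, 5.30 and 9.87 RPKM in GFP+ libraries, against 4.85, 3.61 and 5.19 RPKM in GFP- libraries, with no overlap. Taking same-numbered libraries as pairs, Col4a6 was called higher in GFP+ than in GFP- cells at 0.54 (adjusted p = 0.00936). The 3 type IV pairs stand head to head, with starts 21 bases apart for Col4a1 and Col4a2 on chromosome 8, 72 bases for Col4a4 and Col4a3 on chromosome 1 and 1309 bases for Col4a6 and Col4a5 on chromosome X, in the GENCODE annotation of GRCm38.

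**Figure D4:**
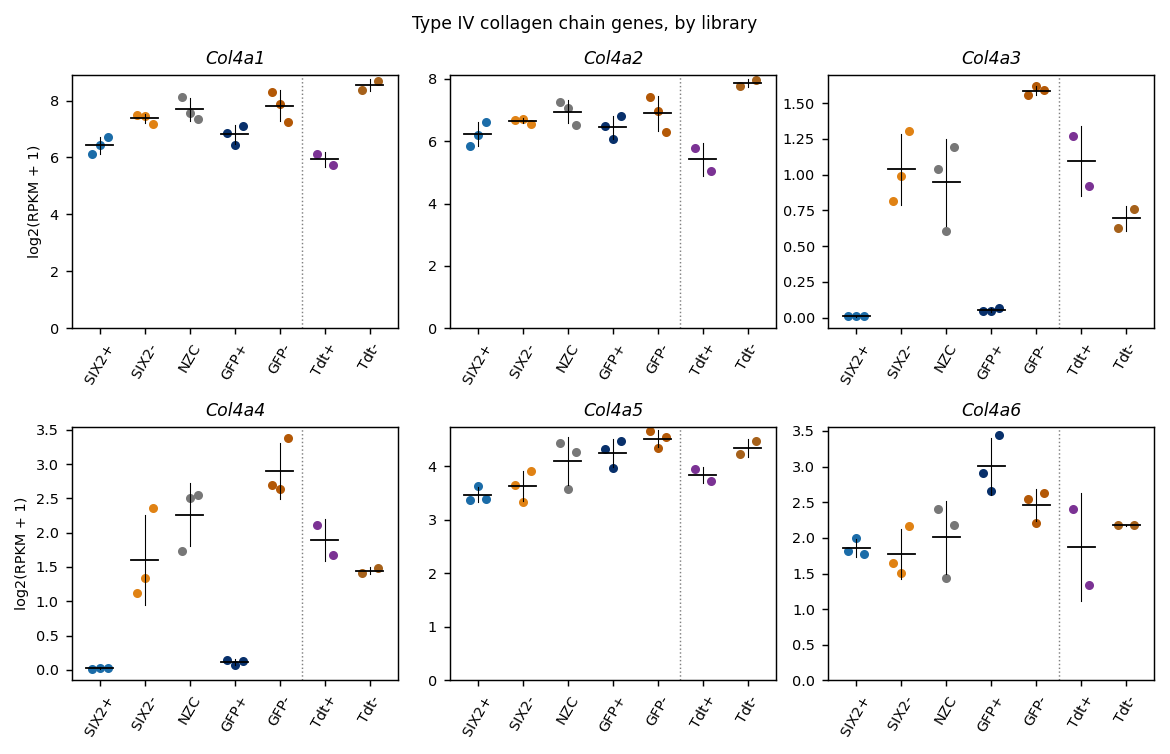
The 6 type IV chains by group, with 1 dot per library on a log2(RPKM + 1) axis, a bar at the mean and a thin line for ± 1 SD; a dotted line parts the E16.5 from the E14.5 table. Col4a1 and Col4a2 are high in every E16.5 group and have their lowest means in Tdt+ cells, and Col4a3 and Col4a4 are near 0 in SIX2+ and GFP+ libraries.

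The 3 collagens of the basement membrane zone behaved apart from each other. Col18a1, whose cleaved end is endostatin and which lies in epithelial and vascular membranes, was 29.0, 33.0 and 41.6 RPKM in SIX2+ libraries, against 40.9, 42.7 and 30.9 RPKM in SIX2- libraries, and was not called (log2 fold change -0.14, SE 0.23, adjusted p = 0.741). In GFP+ libraries it was 45.3, 36.3 and 59.3 RPKM, against 38.5, 26.8 and 22.9 RPKM in GFP- libraries, which overlapped and were called higher (0.66, SE 0.23, adjusted p = 0.0417). That call was lost under several other settings, with adjusted p of 0.117 without GFP- library 2, 0.155 without GFP- library 3, 0.0844 without GFP+ library 1 and 0.171 without GFP+ library 3. Tdt+ libraries had 4.64 and 2.70 RPKM of Col18a1, against 71.7 and 79.0 RPKM in Tdt- libraries, one of the largest falls of the family there (-4.06, SE 0.27, adjusted p = 0.000427).

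Col15a1, a relative of Col18a1 found around vessels and muscle, was 0.158, 0.242 and 0.0824 RPKM in SIX2+ libraries, against 15.1, 9.21 and 5.53 RPKM in SIX2- libraries (-3.14, SE 0.58, adjusted p = 0.000979). GFP+ libraries had 0.314, 0.385 and 0.274 RPKM, against 42.7, 30.3 and 12.3 RPKM in GFP- libraries (-4.31, SE 0.58, adjusted p = 5.03e-05). Tdt+ libraries had 0.416 and 0.401 RPKM, against 22.8 and 39.0 RPKM in Tdt- libraries (-4.45, SE 0.31, adjusted p = 0.000533). Thus Col15a1 was low in both the progenitor fractions and the Foxd1 lineage, with no overlap in any sort, and library 3 of each negative fraction at E16.5 held the least. It reached 1 RPKM in no SIX2+, GFP+ or Tdt+ library, and passed the E14.5 filter through Tdt- libraries alone. The 5 endothelial markers were all lower in SIX2+ and in GFP+ cells, at 0.685 to 1.0 RPKM summed in SIX2+ libraries and 24.7 to 73.8 RPKM in SIX2- libraries, and their part in the Col15a1 difference was not tested. Col7a1, which forms the anchoring fibrils under epithelia, was 4.39, 4.30 and 7.92 RPKM in SIX2+ libraries, against 1.70, 0.984 and 1.49 RPKM in SIX2- libraries (1.42, SE 0.30, adjusted p = 0.00292). GFP+ libraries had 2.94, 2.22 and 5.72 RPKM of Col7a1, against 3.57, 2.39 and 1.68 RPKM in GFP- libraries, with overlap and no call (0.35, SE 0.30, adjusted p = 0.41). It was 0.848 and 0.439 RPKM in Tdt+ libraries, against 6.81 and 4.02 RPKM in Tdt- libraries (-1.94, SE 0.30, adjusted p = 0.00742). That call was lost when genes of any level were tested (adjusted p = 0.0932), and Col7a1 had passed the filter there through Tdt- libraries alone.

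Network-forming collagens were low in progenitors throughout. All 8 tested members were lower in SIX2+ against SIX2- cells (15.9% of all genes) and in GFP+ against GFP- cells (17.0%), and none of the 5 tested at E14.5 was called in Tdt+ cells. In each E16.5 sort 4 of the 8 reached 1 RPKM in the negative fraction and in no progenitor library, so their direction there was close to fixed. These were Col6a3, Col6a4 and Col8a1 in both sorts, Col6a6 in the SIX2 sort and Col6a5 in the GFP sort. Type VI collagen forms beaded filaments around cells from the chains of Col6a1, Col6a2 and Col6a3. Col6a1 was 1.03, 1.01 and 1.46 RPKM in SIX2+ libraries, against 79.2, 60.5 and 87.2 RPKM in SIX2- libraries (-5.13, SE 0.26, adjusted p = 7.96e-09). Col6a2 was 0.823, 0.814 and 1.24 RPKM in SIX2+ libraries, against 83.4, 57.9 and 85.7 RPKM in SIX2- libraries (-5.28, SE 0.28, adjusted p = 9.1e-09). Col6a3 was 0.0978, 0.0766 and 0.215 RPKM in SIX2+ libraries, against 24.6, 20.9 and 30.0 RPKM in SIX2- libraries (-4.52, SE 0.18, adjusted p = 1.48e-09). None of the 3 chains was over 1.46 RPKM in any SIX2+ library. In the GFP sort Col6a1 was 1.47, 1.70 and 2.0 RPKM in GFP+ libraries, against 154, 131 and 103 RPKM in GFP- libraries (-5.57). Col6a2 was 1.14, 1.31 and 1.44 RPKM in GFP+ libraries, against 172, 142 and 107 RPKM in GFP- libraries (-5.92). Col6a3 was 0.293, 0.338 and 0.312 RPKM in GFP+ libraries, against 62.6, 55.0 and 49.0 RPKM in GFP- libraries (-5.42). The GFP+ libraries were thus far under the GFP- libraries for all 3 chains.

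The 3 chains stood in other proportions where they were low. The ratio of Col6a1 to Col6a2 was 1.18 to 1.25 in SIX2+ libraries and 0.950 to 1.04 in SIX2- libraries, and that of Col6a1 to Col6a3 was 6.80 to 13.2 in SIX2+ libraries and 2.90 to 3.22 in SIX2- libraries. In the GFP sort the first ratio was 1.29 to 1.39 in GFP+ and 0.894 to 0.963 in GFP- libraries. The second was 5.01 to 6.40 in GFP+ and 2.10 to 2.46 in GFP- libraries. Col6a3 was at most 0.338 RPKM in progenitor libraries, so its ratios there carry little precision. In Tdt+ libraries Col6a1 was 88.7 and 51.4 RPKM, against 74.9 and 112 RPKM in Tdt- libraries, which overlapped (-0.43, SE 0.33, adjusted p = 0.481). Col6a2 was 89.9 and 62.4 RPKM in Tdt+ libraries, against 78.0 and 124 RPKM in Tdt- libraries, and overlapped as well. Col6a3 was 33.5 and 19.5 RPKM in Tdt+ libraries, against 34.0 and 54.5 RPKM in Tdt- libraries, with no overlap and no call (-0.73, adjusted p = 0.236). The alternative type VI chains Col6a4, Col6a5 and Col6a6 had means of at most 5.48 RPKM in any group and were lower in both sorts, at log2 fold changes of -1.06, -0.60 and -1.15 in SIX2+ cells and -1.57, -1.07 and -1.75 in GFP+ cells. Type VIII collagen forms the lattice of the subendothelial and corneal membranes. Its chain Col8a2 was 0.785, 0.843 and 1.49 RPKM in SIX2+ libraries, against 12.8, 11.3 and 26.0 RPKM in SIX2- libraries (-3.04, SE 0.27, adjusted p = 1.21e-06). GFP+ libraries had 1.19, 1.01 and 1.46 RPKM of Col8a2, against 22.7, 21.7 and 29.5 RPKM in GFP- libraries (-3.52). It was 25.0 and 17.1 RPKM in Tdt+ libraries, against 17.4 and 19.4 RPKM in Tdt- libraries (0.16, adjusted p = 0.744). Col8a1 was lower too, by log2 fold changes of -1.31 in SIX2+ and -1.02 in GFP+ cells.

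Col10a1, the type X chain of growth plate cartilage, passed no filter. It was 0.546 RPKM in SIX2+ library 3, 1.60 RPKM in GFP+ library 3 and 0.951 RPKM in GFP- library 3, and at most 0.0209 RPKM in the other libraries. The gene lies at chr10:34389981-34397085 within the span of Nt5dc1 on the opposite strand.

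FACIT collagens sit on the surface of fibres. Limma called 4 of the 6 tested members lower and 1 higher in SIX2+ than in SIX2- cells, and the same numbers in the GFP sort. Col16a1, which has a broad range in connective tissue, was 1.02, 1.41 and 1.80 RPKM in SIX2+ libraries, against 41.8, 32.0 and 61.3 RPKM in SIX2- libraries (-4.22, SE 0.22, adjusted p = 9.1e-09). Col12a1, on type I fibres, was 0.387, 0.653 and 0.502 RPKM in SIX2+ libraries, against 17, 13.9 and 25.9 RPKM in SIX2- libraries (-3.68, SE 0.18, adjusted p = 5.3e-09). Col14a1, also on type I fibres, was 0.368, 0.298 and 0.261 RPKM in SIX2+ libraries, against 28.5, 14.2 and 16.4 RPKM in SIX2- libraries (-3.92, SE 0.39, adjusted p = 3.58e-06). The 3 genes were low in every progenitor library, and the GFP sort showed the same. Col16a1 was 0.903, 1.44 and 1.39 RPKM in GFP+ libraries, against 71.6, 62.9 and 62.7 RPKM in GFP- libraries (-4.90). Col12a1 was 1.11, 1.0 and 1.07 RPKM in GFP+ libraries, against 56.3, 48.6 and 57.3 RPKM in GFP- libraries (-4.74). Col14a1 was 1.08, 0.767 and 0.804 RPKM in GFP+ libraries, against 71.4, 54.3 and 25.6 RPKM in GFP- libraries (-4.66), with the widest spread of the 3 in GFP- cells. Of the tested FACIT genes, Col12a1 and Col14a1 reached 1 RPKM in SIX2- libraries and in no SIX2+ library.

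The same 3 genes parted in the Foxd1 lineage. Col16a1 was 41.6 and 40.5 RPKM in Tdt+ libraries, against 43.1 and 64.5 RPKM in Tdt- libraries (-0.35, adjusted p = 0.457), and Col12a1 was 43.3 and 22.1 RPKM in Tdt+ libraries, against 33.0 and 39.4 RPKM in Tdt- libraries (-0.21, adjusted p = 0.739). Col14a1 was 13.2 and 8.52 RPKM in Tdt+ libraries, against 38.7 and 64.3 RPKM in Tdt- libraries (-2.13, SE 0.31, adjusted p = 0.00611). Of the 7 stromal markers, Lum and Dcn were lower there too (-2.24 and -1.24), Foxd1 was higher (2.35) and the others were not called. The median log2 fold change of the 7 was 0.20, and their part in the Col14a1 difference was not tested. The Col14a1 call was lost when genes of any level were tested (adjusted p = 0.0914).

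Type IX collagen coats type II fibres with the chains of Col9a1, Col9a2 and Col9a3, and these moved in different directions. Col9a1 was 8.55, 10.1 and 4.65 RPKM in SIX2+ libraries, against 4.08, 3.22 and 4.83 RPKM in SIX2- libraries, which overlapped (0.75, SE 0.26, adjusted p = 0.047). That call lay at the threshold and was lost in most other settings, with adjusted p of 0.107 without SIX2- library 1, 0.172 without SIX2- library 2, 0.151 without SIX2+ library 1 and 0.21 without SIX2+ library 2. GFP+ libraries had 14.2, 11.8 and 16.6 RPKM of Col9a1, against 5.49, 3.87 and 3.48 RPKM in GFP- libraries, with no overlap (1.53, SE 0.26, adjusted p = 0.000381). Col9a2 was 1.36, 1.34 and 2.11 RPKM in SIX2+ libraries, against 7.87, 4.53 and 8.34 RPKM in SIX2- libraries (-1.58, SE 0.41, adjusted p = 0.0103), and 1.33, 0.999 and 2.77 RPKM in GFP+ libraries, against 11.4, 8.13 and 5.36 RPKM in GFP- libraries (-1.79). The ratio of Col9a1 to Col9a2 was 2.20 to 7.55 in SIX2+ libraries and 0.519 to 0.711 in SIX2- libraries, and 5.99 to 11.8 in GFP+ libraries and 0.477 to 0.649 in GFP- libraries. Col9a3 was at most 2.68 RPKM in every library of these 4 groups and was not called in either sort (-0.34 and -0.26).

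All 3 type IX genes were lower in Tdt+ cells. Col9a1 was 1.63 and 1.40 RPKM in Tdt+ libraries, against 14.8 and 13.5 RPKM in Tdt- libraries (-2.59, SE 0.24, adjusted p = 0.00129). Col9a2 was 3.80 and 2.55 RPKM in Tdt+ libraries, against 19.5 and 17.8 RPKM in Tdt- libraries (-2.25, SE 0.26, adjusted p = 0.00268). That call was lost when genes of any level were tested (adjusted p = 0.0526). Col9a3 fell by 1.54 on the log2 scale (adjusted p = 0.0121). Neither fraction overlapped the other for any of these genes, but Col9a3 passed the filter through Tdt- libraries alone. Of the untested FACIT members, Col20a1 was 0.642 to 1.30 RPKM in GFP+ libraries and 0.301 to 0.371 RPKM in GFP- libraries, Col22a1 was at most 1.22 RPKM in any library, and Col19a1 at most 0.0430 RPKM.

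Of the transmembrane and other collagens, 2 of the 4 tested were higher and 1 was lower in SIX2+ than in SIX2- cells, and 1 was higher and 2 were lower in GFP+ than in GFP- cells. In a class of 4 a single call is close to the shares over all genes (8.37% higher and 15.9% lower in the SIX2 sort, 15.9% and 17.0% in the GFP sort). Col26a1, which encodes a small secreted collagen-like protein, was 96.0, 79.6 and 91.3 RPKM in SIX2+ libraries, against 53.9, 45.0 and 73.9 RPKM in SIX2- libraries (0.64, SE 0.18, adjusted p = 0.0159). GFP+ libraries had 134, 117 and 141 RPKM, against 71.3, 55.1 and 62.8 RPKM in GFP- libraries (1.04, SE 0.18, adjusted p = 0.000419). It was high in all 7 groups and did not overlap in these sorts, and the SIX2 call was lost without SIX2- library 1 (0.0593), SIX2+ library 1 (0.0636) or SIX2- library 2 (0.092), all as adjusted p. In the Foxd1 lineage Col26a1 was 156 and 96.6 RPKM in Tdt+ libraries, against 88.1 and 75.1 RPKM in Tdt- libraries, with no overlap. It was not called (0.59, SE 0.30, adjusted p = 0.291) but was called without Tdt+ library 2 at 0.93 (adjusted p = 0.0249).

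Col13a1, a collagen anchored in the cell membrane, was 14.9, 19 and 20.1 RPKM in SIX2+ libraries, against 5.75, 6.26 and 5.58 RPKM in SIX2- libraries (1.46, SE 0.26, adjusted p = 0.000814). GFP+ libraries had 8.48, 6.30 and 8.35 RPKM, against 6.14, 4.34 and 3.29 RPKM in GFP- libraries (0.66, SE 0.26, adjusted p = 0.0675), and these sets did not overlap although the gene was not called. With same-numbered libraries as pairs it was called there (adjusted p = 0.00975), and also without GFP- library 1 (0.0417) or NZC library 2 (0.0102). Tdt+ libraries had 0.766 and 1.39 RPKM of Col13a1, against 10.5 and 11.9 RPKM in Tdt- libraries (-2.57, SE 0.27, adjusted p = 0.00182), a call lost when genes of any level were tested (adjusted p = 0.0529). The other membrane-anchored chains were low in progenitors. Col25a1 was 0.151, 0.172 and 0.0494 RPKM in SIX2+ libraries, against 4.46, 2.63 and 2.78 RPKM in SIX2- libraries (-1.91, SE 0.28, adjusted p = 0.000178). In the GFP sort it was 0.298, 0.226 and 0.212 RPKM in GFP+ libraries, against 10.3, 6.93 and 4.45 RPKM in GFP- libraries (-2.66). There, as in the SIX2 sort, Col25a1 reached 1 RPKM in the negative fraction and in no progenitor library. Tdt+ libraries had 2.25 and 2.12 RPKM of Col25a1, against 4.12 and 6.24 RPKM in Tdt- libraries, with no overlap and no call (-0.93, adjusted p = 0.08). Col23a1 was 1.28, 1.66 and 1.29 RPKM in SIX2+ libraries, against 10.1, 5.22 and 3.28 RPKM in SIX2- libraries, with no overlap and no call (-1.47, SE 0.54, adjusted p = 0.0619). The paired fit called it (adjusted p = 0.00234), and so did the fit without SIX2- library 3 (adjusted p = 0.0448). Col23a1 was lower in GFP+ cells, at 1.64, 1.27 and 1.23 RPKM in GFP+ libraries, against 22.4, 11.5 and 4.49 RPKM in GFP- libraries (-2.31). It was lower in Tdt+ cells too (-2.77), in the Tdt+ libraries at 4.49 and 1.49 RPKM, against 24 and 24.3 RPKM in Tdt- libraries, and the Tdt+ call was lost when genes of any level were tested (adjusted p = 0.0877). Col17a1 was at most 1.34 RPKM and Col28a1 at most 0.151 RPKM in any library.

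**Figure D5:**
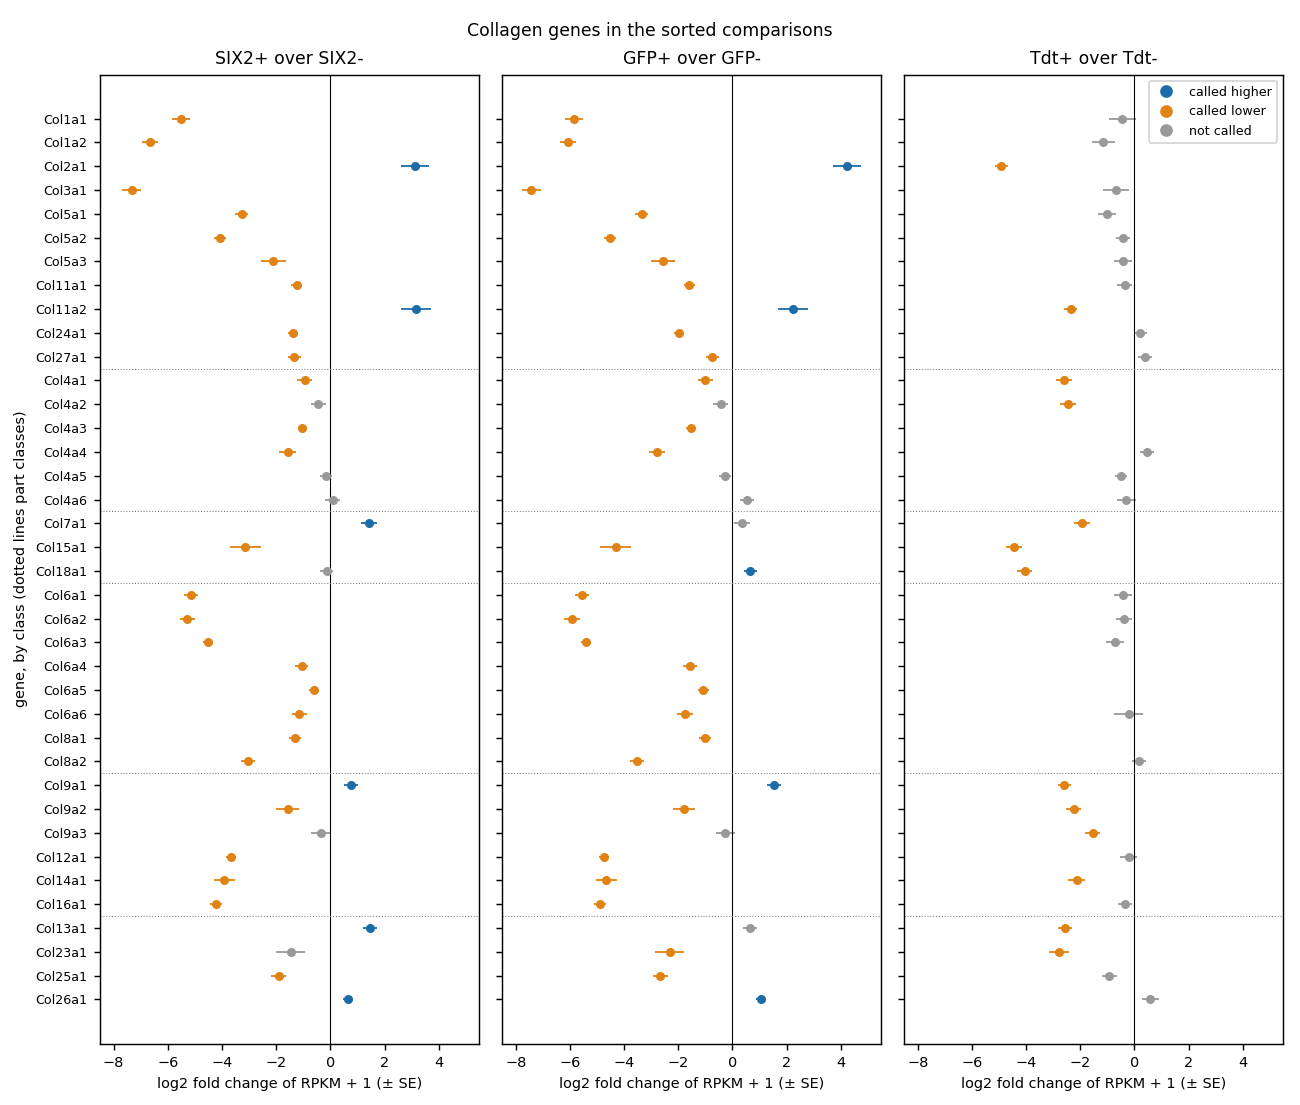
Log2 fold changes of RPKM + 1 with their standard errors for each tested collagen gene, by class, in SIX2+ over SIX2-, GFP+ over GFP- and Tdt+ over Tdt- cells; blue marks were called higher and orange marks lower at a limma adjusted p under 0.05, and grey marks were not called. Col3a1 is lowest in the first pair of comparisons, at -7.33 and -7.43. The highest are Col11a2 at 3.16, just over Col2a1 at 3.13, in the SIX2 sort and Col2a1 at 4.23 in the GFP sort. Tdt+ values lie apart, with Col2a1 at -4.91.

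The unsorted cells held the collagen genes of both fractions. Col3a1 was 629.8, 286 and 289 RPKM in NZC libraries, and Col4a1 was 278, 190.3 and 164 RPKM there. Col18a1 was 63.5, 66.6 and 43.6 RPKM in NZC libraries. Of 38 tested collagen genes, limma called 28 lower and 5 higher in SIX2+ cells than in NZC, where 18.5% and 18.1% of all genes were called lower and higher. The 5 were Col2a1, Col11a2, Col7a1, Col13a1 and Col26a1, at log2 fold changes of 1.52, 2.66, 1.28, 1.46 and 0.57. Col11a2 was 1.35, 1.85 and 11.2 RPKM in NZC libraries, with NZC library 3 the highest. Col7a1 was 2.08, 0.980 and 1.94 RPKM, Col13a1 6.83, 3.26 and 8.61 RPKM and Col26a1 70.9, 50.5 and 58.1 RPKM in the same libraries. The 5 called genes were 3 without NZC library 2, and 3 without SIX2+ library 1 or 3. Between SIX2- cells and NZC none was called, with 7 at an unadjusted p under 0.05, where 5.95% of all genes were called lower and 5.16% higher. All 7 had lower values in SIX2- cells. Col2a1 was 4.10, 7.89 and 14.7 RPKM in SIX2- libraries, against 21.3, 17.5 and 47.9 RPKM in NZC libraries, with no overlap (-1.61, SE 0.53, adjusted p = 0.0606). Col18a1 did not overlap either, at 66% of the NZC mean in SIX2- cells (-0.58, adjusted p = 0.112). The counts over all genes moved with the setting, with 95 higher and 266 lower without SIX2- library 2, 1431 higher and 972 lower without NZC library 1, and 1 higher and 13 lower with same-numbered libraries as pairs, so the lack of collagen calls cannot be read against a steady background. Leaving out SIX2- library 3, the one with the most Six2, 4 genes were lower in SIX2- cells, and 2 were lower without NZC library 2 or 3, and 2 were higher without NZC library 1. These comparisons share the SIX2+, SIX2- and NZC libraries with each other and with the SIX2 sort.

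Levels also differed between the 2 ways of isolating progenitors. GFP+ cells were higher than SIX2+ cells in Col1a2 (1.44, SE 0.29, adjusted p = 0.0139), Col4a6 (1.14, SE 0.27, adjusted p = 0.0324) and Col11a1 (0.78, SE 0.20, adjusted p = 0.0462) and lower in Col13a1 (-1.12, SE 0.26, adjusted p = 0.0317), where 2.30% of all genes were called higher and 0.772% lower. There were 14 with an unadjusted p under 0.05. With no overlap between the groups, 20 of the 38 were higher and 2 lower in GFP+ than in SIX2+ cells, against 13.1% and 13.7% of all genes, and the median log2 fold change was 0.23 for the collagen genes and -0.05 for all genes. Of the 20, Col4a3, Col4a4, Col6a3, Col8a1, Col15a1, Col24a1 and Col25a1 were under 1 RPKM in every library of both groups. They passed the filter through other fractions, and the order of such low values carries little weight. Col6a6, Col12a1 and Col14a1 reached 1 RPKM in GFP+ and in no SIX2+ library. In fits of only these 2 groups, 7 were called higher and 2 lower, where 490 and 281 of all 11398 genes were. The count of higher collagen genes ran from 0, without GFP+ library 1 or SIX2+ library 2, to 6, without NZC library 2. It was 1 without SIX2+ library 1, SIX2+ library 3 or GFP+ library 3 and 5 without GFP+ library 2. Over all genes the higher calls ran from 84, without GFP+ library 1, to 609, without NZC library 2. Col13a1 was no longer called without any one of the 6 libraries compared. GFP- cells were higher than SIX2- cells in 9 collagen genes and lower in none, against 4.42% and 5.70% of all genes. The 9 were Col12a1, Col6a6, Col4a4, Col11a1, Col6a3, Col5a2, Col5a1, Col4a5 and Col24a1, at log2 fold changes between 0.85 for Col24a1 and 1.51 for Col12a1. With same-numbered libraries as pairs 25 were higher and 3 lower, where 1942 and 3563 of all 12161 genes were. Such a pair is not 1 animal, since the genotypes differ. The count of higher collagen genes was 3 without SIX2- library 2, where it was 120 of all 12748 genes. It was 5 without GFP- library 1 (153 of all 12750 genes) and 15 without NZC library 2 (1160 of all 12760 genes). Stromal markers summed to 534 to 688 RPKM in GFP- libraries and 320.4 to 492 RPKM in SIX2- libraries, and 4 erythroid markers to 597 to 6143 RPKM in GFP- libraries and 2.74 to 12.4 RPKM in SIX2- libraries, and the part of either in these differences was not tested. The groups differ at once in genotype, in the way of sorting and in the cells they were sorted from, nephrogenic zone cells for SIX2 and developing kidneys for GFP, and these cannot be told apart.

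The difference between the sorts was itself tested. No collagen gene was called in the contrast of GFP+ over GFP- minus SIX2+ over SIX2- with limma, where 8 had an unadjusted p under 0.05 and 0.0936% of all genes were called higher, 0.0468% lower and 0.140% in either direction. The paired fit called 3 genes lower, which were Col11a2 (-0.92, adjusted p = 0.0211), Col12a1 (-1.06, adjusted p = 0.0484) and Col6a3 (-0.90, adjusted p = 0.0197). That fit called 228 of all 12615 genes higher and 153 lower. The fit without SIX2- library 3 called 1 collagen gene, where 14 of all 12789 genes were higher and 11 lower.

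The genes that make, process and bind collagen were taken from lists chosen by function. Of 20 tested genes for making collagen inside the cell, 12 were lower and 1 was higher in SIX2+ than in SIX2- cells, the same numbers were called in the GFP sort, and 1 was lower in Tdt+ than in Tdt- cells. Over all genes 15.9% were lower and 8.37% higher in SIX2+ cells, 17.0% and 15.9% in GFP+ cells and 7.21% lower in Tdt+ cells, so the single calls do not stand above those shares. The median log2 fold changes were -0.53, -0.55 and 0.14, against 0.04, 0.09 and -0.04 for all genes. The largest change was of Creb3l1, a transcription factor that drives type I collagen genes in bone, at 0.682 RPKM on average in SIX2+ and 27.2 RPKM in SIX2- cells (-4.05), followed by P3h2, a prolyl hydroxylase of basement membrane collagen (-2.03), Plod1, a lysyl hydroxylase (-1.5), P3h3 (-1.26) and Crtap (-1.20), both of the prolyl hydroxylation machinery. P4ha3, a subunit of prolyl 4-hydroxylase, was the gene that was higher, at 0.72 in SIX2+ and 1.13 in GFP+ cells. Serpinh1, the collagen chaperone HSP47, averaged 449.9 RPKM in SIX2+ and 574 RPKM in SIX2- cells, with no call (-0.36, adjusted p = 0.219). P3h2 was the gene lower in Tdt+ cells (-1.64).

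Of 12 tested genes that process collagen outside the cell, 11 were lower in SIX2+ and 11 in GFP+ cells, against 15.9% and 17.0% of all genes, with medians of -1.53 and -1.73 against 0.04 and 0.09 for all genes. Lysyl oxidases, which cross-link fibres, led with Loxl1 (-3.32) and Lox (-3.22) in SIX2+ cells, followed by Pcolce, which enhances propeptide cleavage (-2.72), Loxl2 (-2.37) and Loxl4 (-2.04). In Tdt+ cells Loxl1 was higher, at 62.3 RPKM on average against 20.7 RPKM in Tdt- cells (1.56), and Lox was lower, at 11.1 RPKM against 39.6 RPKM in Tdt- cells (-1.76).

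Of 7 tested collagen receptors, 3 were lower and 1 was higher in SIX2+ cells, 4 were lower and 1 was higher in GFP+ cells, and 2 of 6 were lower in Tdt+ cells. The single higher call is near the share over all genes, 8.37% in SIX2+ and 15.9% in GFP+ cells, and 15.9%, 17.0% and 7.21% of all genes were lower in the 3 sorts. Ddr1, a receptor kinase of epithelia, was 46.9 RPKM on average in SIX2+ and 24.4 RPKM in SIX2- cells (0.91), 48.0 RPKM in GFP+ and 19.8 RPKM in GFP- cells (1.23), and 14.7 RPKM in Tdt+ and 41.0 RPKM in Tdt- cells (-1.44). Its relative Ddr2, of connective tissue cells, was 0.0501 RPKM in SIX2+ and 12.1 RPKM in SIX2- cells (-3.64) and 0.0848 RPKM in GFP+ and 22.6 RPKM in GFP- cells (-4.43), and was not called in Tdt+ cells (0.12). Itga1, the integrin chain that binds type IV collagen, was lower in all 3 sorts, at -2.17, -2.83 and -1.24. Itgb1, the partner chain of the collagen-binding integrins, was lower in SIX2+ (-0.70, adjusted p = 0.028) and GFP+ cells (-0.79, adjusted p = 0.0115), and Mrc2, which takes up collagen, was lower in GFP+ cells (-0.74, adjusted p = 0.0282).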

How the data were processed

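Poly(A) RNA was sequenced with a stranded mRNA kit from Kapa, per the labels' protocols. TopHat2, Partek and the genome build mm10 are named without versions or roles, per the submitters' processing notes. For the annotation and strand counting, nothing is given in the sources used here. RNA came from the RecoverAll or the RNeasy Micro kit, with no kit stated per library. The authors deposited 1 table for E16.5 (15 libraries) and 1 for E14.5 (4 libraries), titled TPM, whose values behave as RPKM. Column sums varied by 7.99% (coefficient of variation) at E16.5 and 13.8% at E14.5, where TPM would sum to the same total, but by 2.70% and 2.94% after weighting by gene length. Tests planned for TPM were therefore run on RPKM. The tables were normalised separately, so tests stayed within a table.

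Values were compared as log2(RPKM + 1) with limma 3.58.1 in R 4.3.3 (eBayes with an intensity trend, two-sided). The 15 E16.5 libraries entered 1 fit of group means, and the 4 E14.5 libraries another. Genes with at least 1 RPKM in at least 3 (E16.5) or 2 (E14.5) libraries were tested, and p-values were adjusted by Benjamini-Hochberg over all of them. The fit was tested on simulated data. Other settings were pseudocount 0.1, no filter, a filter of 5, values rescaled to TPM, quantile normalisation, a replicate block, only the groups compared, and each library left out. Depth was estimated from the smallest values, which came within 0.05 of a whole read in 52.8% to 71.2% of cases per library, so no counts were recovered. The number of reads limits the precision of low values.

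Replicate numbers are shared across groups in the labels. Deviations from group means of same-numbered libraries correlated across genes at r = 0.64, 0.28 and 0.68 for SIX2+ and SIX2-, and 0.45, 0.44 and 0.39 for GFP+ and GFP-. They correlated at 0.42, 0.19 and 0.50 for SIX2- and NZC, and at 0.46, 0.44 and 0.55 for GFP- and SIX2-. These numbers were taken to pair libraries, though the labels do not say what same-numbered libraries share. GFP- and SIX2- cells differ in genotype, so a pair of these is not 1 animal. Promoter windows are from RefSeq on GRCm38.p6 and gene positions from GENCODE M21. Values per library in the sorts, or their range, were given for the members with the highest group means of their class (up to 6 for fibrillar and type IV, up to 4 for the others) and for those called in opposite directions or higher in progenitors (NZC libraries only for some of them), and each pathway list is represented by the called members that changed most, up to 5. The members and lists were chosen with earlier results of these data known. Summaries used pandas 2.3.3 and numpy 2.4.6 in Python 3.11.15, and figures matplotlib 3.10.9.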

Additional observations from a re-analysis of the deposited data

How the results depend on the processing

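Of 1132 alternative values for the collagen genes described by library, 1074 kept direction and side of the threshold, 34 lost the call, 24 gained it and none reversed. Of 238 alternative counts of called collagen genes, 190 stayed within 1.5 times the reported count and 48 moved further. With no filter on low values 5 genes were lower in Tdt+ cells, 1 was higher and 0 were lower in GFP+ than in SIX2+ cells. Rescaled to TPM, those last counts were 1 and 0. Quantile normalisation gave 3 higher in SIX2+ cells than in NZC, 2 lower in SIX2- cells than in NZC, 0 higher in GFP+ than in SIX2+ cells and 16 higher in GFP- than in SIX2- cells. A pseudocount of 0.1 gave 6 higher in GFP+ than in SIX2+ cells. In fits of only the compared groups, 7 were higher and 2 lower in GFP+ than in SIX2+ cells, and 15 higher in GFP- than in SIX2- cells. With a replicate block, 11 were higher and 3 lower in GFP+ than in SIX2+ cells, whose numbers did not pair (r = 0.40, -0.02 and 0.58), 25 higher and 3 lower in GFP- than in SIX2- cells, and 3 lower in the difference of the sorts. The block gave 15 lower in Tdt+ cells, where 2 pairs share only a number, and it moved no other count by over 1.5 times. Using replicates 1 and 2 only, a setting chosen after seeing the data, gave 1 lower in SIX2- cells than in NZC and 0 higher in GFP+ than in SIX2+ cells. Counts over all genes moved with the setting as well, and the cause of these shifts was not tested.

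Leaving out 1 library at a time gave 4 to 6 higher and 24 to 26 lower in SIX2+ than in SIX2- cells, 4 to 6 and 25 to 27 in GFP+ than in GFP- cells, 0 to 1 and 8 to 23 in Tdt+ than in Tdt- cells, 3 to 5 and 24 to 27 in SIX2+ cells than in NZC, 0 to 2 and 0 to 4 in SIX2- cells than in NZC, 0 to 6 and 0 to 1 in GFP+ than in SIX2+ cells, 3 to 15 and 0 to 0 in GFP- than in SIX2- cells, and 0 to 0 and 0 to 1 in the difference of the sorts. Where this left an E14.5 group with 1 library, it was assumed to vary like the other group. Over all genes called, the share of higher calls was 34.5% in SIX2+ cells and 50.1% after quantile normalisation, 48.2% in GFP+ cells and 35.6% in TPM. In Tdt+ cells, with 151 genes called higher and 893 lower, that share was 33.1% after quantile normalisation and 26.6% with the block. TPM also moved the median of all genes in Tdt+ cells to -0.29 from -0.04 on the log2 scale. With 2 or 3 libraries a group, and 8430000 to 9480000 reads in Tdt+ libraries, values under about 1 RPKM carry little precision.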
